A study of Homo sapiens with 6 samples.

Results

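Transcripts of the kinetochore, the centromere and the spindle assembly checkpoint were examined in 5637 cells, an established human bladder carcinoma line, after knockdown of YKT6, a SNARE protein of membrane fusion. The 48 genes were taken from a list of CENP proteins, outer kinetochore subunits, checkpoint proteins, the chromosomal passenger complex and mitotic kinases, a list drawn up with earlier results of these data known. All 48 had a row among the 36887 genes of the count table, and all 48 passed the filter on low counts. RNA was isolated 48 h after transfection from 3 samples given the control siRNA (siNC, labelled wild type) and 3 given siRNA against YKT6 (siYKT6, labelled YKT6 knockdown), and all 6 samples carry the same batch label. The cells are a single line under transient knockdown, and neither separate cultures for the samples nor the use of the same siRNA in all siYKT6 samples is stated, so p values measure the spread between these samples, which may be technical.

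The kinetochore is the protein structure that joins each chromosome to spindle microtubules. It is built on centromeric chromatin that carries the histone variant CENP-A, on which the inner kinetochore network of CENP proteins sits and recruits the outer MIS12 and NDC80 complexes that grip microtubules. Unattached kinetochores gather BUB and MAD proteins, which form an inhibitor of CDC20 and the anaphase-promoting complex and so delay anaphase, while the chromosomal passenger complex releases faulty attachments. Most of these genes are transcribed in the later part of the cell cycle in dividing cells, and their RNA is commonly high in carcinoma lines.

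The libraries held 45205238 to 64982015 counts. YKT6 was at 64.5, 65.3 and 68.2 CPM (counts over the library size after TMM adjustment) in the siNC samples and 17.7, 19.4 and 17.3 CPM in the siYKT6 samples. The groups did not overlap, and siYKT6 samples held 27.5% of the siNC level (log2 fold change -1.86, standard error 0.0477, edgeR adjusted p = 5.31e-17; exact two-sided permutation p = 0.1, the smallest that 3 against 3 samples allow). Of 11 epithelial markers with a row, 5 were lower and 1 was higher in siYKT6 cells, and their summed level was 4488 to 4622 CPM in siNC samples and 3363 to 3554 CPM in siYKT6 samples. The urothelial marker UPK1B was under 0.1 CPM in all libraries. The 5 leukocyte markers reported summed to 4.48 to 5.22 CPM in siNC and 3.48 to 4.35 CPM in siYKT6 samples, with CD68 called lower and CD3E and LYZ under 0.1 CPM throughout. Endothelial markers summed to 0.901 to 1.39 CPM and 1.60 to 1.63 CPM, with VWF called higher and CLDN5 under 0.1 CPM throughout. Fibroblast markers, mostly COL1A1, which was called higher, summed to 30.1 to 31.0 CPM and 33.8 to 36.1 CPM. The part of these shifts in the results was not tested.

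Most kinetochore and checkpoint transcripts were higher in siYKT6 cells, by small steps, and the others did not pass the test. Of the 48 genes, 37 rose, 0 fell and 11 were not called (quasi-likelihood test of edgeR, adjusted p threshold 0.05), while 14.6% of the 21036 tested genes were called higher and 16.3% lower. At an unadjusted p under 0.05, 38 were higher and 0 lower, and DESeq2 called 34 higher and 0 lower. Over all 21036 tested genes, 3985 were higher and 4322 lower at that unadjusted p, and DESeq2 called 2767 higher and 3095 lower. The median log2 fold change of siYKT6 over siNC was 0.185 for the 48 genes, with quartiles at 0.12 and 0.30, against 0.002 for all tested genes. The called rises ran from 8.38% to 49.1% with a median of 17.9%, 5 of them were of at least 1.3-fold, and none reached 2-fold. In bulk RNA, more cells that carry these transcripts and more transcript per cell cannot be told apart.

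All 3 siYKT6 samples lay above all 3 siNC samples for 37 genes, a pattern met by 20.3% of tested genes. These were not quite the called genes, since CENPH separated without a call and DSN1 was called with overlapping samples. Relative to the siNC mean, the median of the 48 genes was at -0.004, 0.021 and -0.011 (log2) in the siNC samples and at 0.19, 0.20 and 0.21 in the siYKT6 samples. The same median over all tested genes stayed within 0.002 of 0 in every library. The genes together took 0.564% to 0.571% of counts in siNC samples and 0.649% to 0.678% in siYKT6 samples. Among the 12479 tested genes whose mean lay within the range of the 48 (3.55 to 2247 CPM), calls were more frequent, with 21.2% higher and 23.5% lower. That range is wide, so the set is not matched to the 48 gene by gene.

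**Figure D1:**
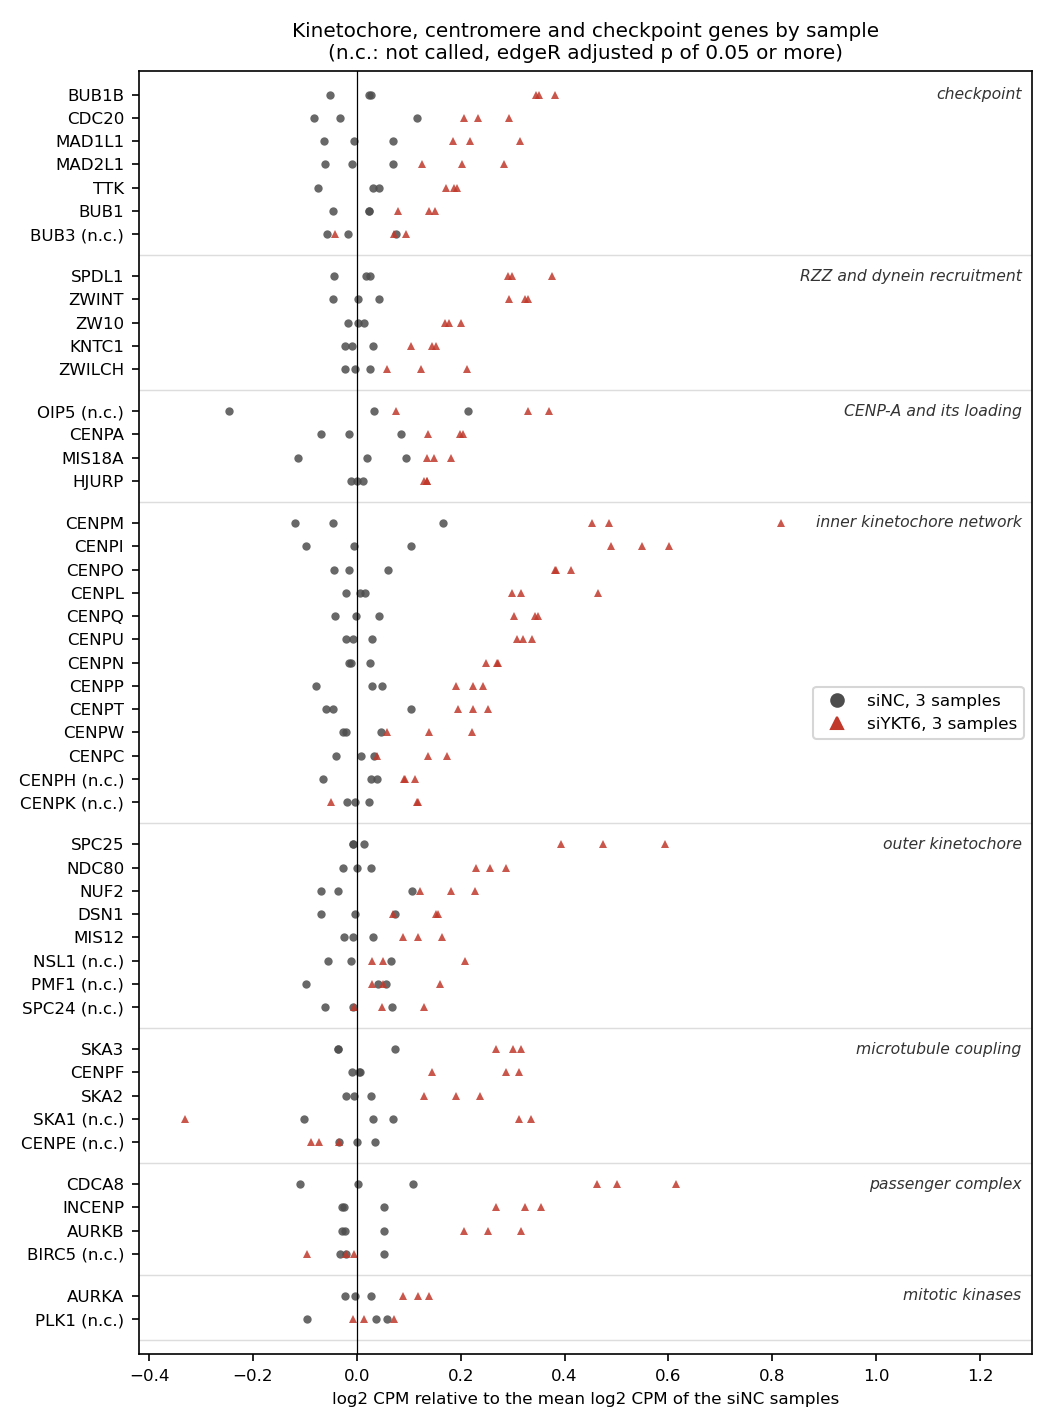
Each row is a gene, the x axis gives its log2 CPM relative to the mean of the siNC samples, circles are the 3 siNC samples and triangles the 3 siYKT6 samples, and n.c. marks the 11 genes that edgeR did not call. Triangles lie to the right of the circles for 37 of 48 genes, while BIRC5, PLK1 and BUB3 show the groups mixed and SKA1 has 1 siYKT6 sample far to the left. For CENPE the triangles lie to the left of the circles, except that the rightmost triangle is level with the leftmost circle.

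**Figure D2:**
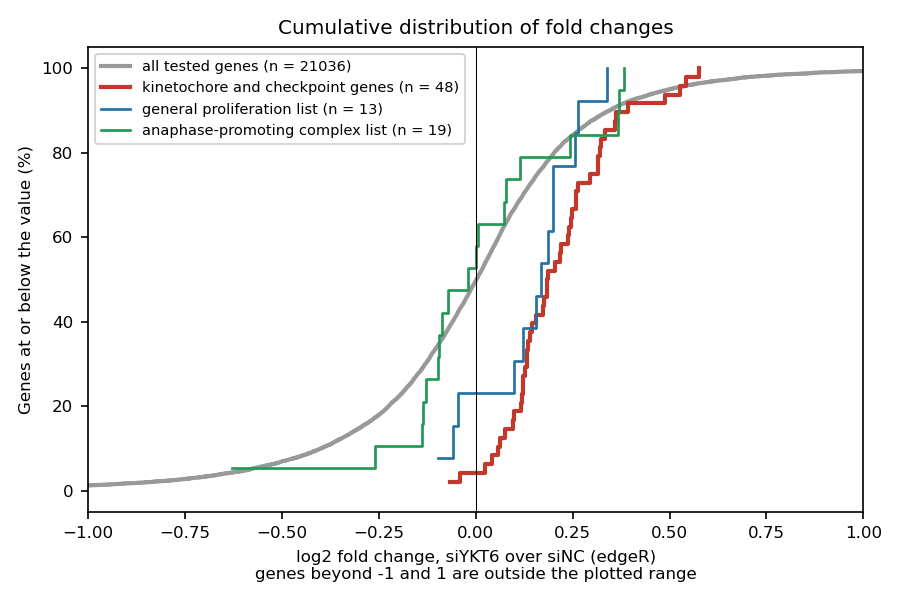
Cumulative share of genes (y axis, %) at or below each log2 fold change of siYKT6 over siNC (x axis) for all 21036 tested genes, the 48 kinetochore and checkpoint genes, 13 general proliferation genes and 19 genes of the anaphase-promoting complex and its targets. At their medians, the curves of the 48 genes (0.185) and of the general proliferation list (0.169) lie to the right of that of all genes (0.002). That of the anaphase-promoting complex list does not (median -0.019).

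Levels were spread far more widely than fold changes. Per kilobase of annotated exon, the siNC mean ran from 2.36 CPM for CENPM, a subunit of the inner network, to 176 CPM for CENPF, a large protein of the kinetochore corona, with a median of 12.7 CPM per kilobase that was 14.1 in siYKT6 cells. CENPF was followed by SKA2, a subunit of the microtubule-binding SKA complex, at 174 CPM per kilobase, and by CENPW, a histone-fold protein of the inner network, at 88.2. The CENPF and SKA2 levels lay closer together than their spread over samples, as did INCENP at 69.2 and BUB1B at 68.2. CENPF alone made up 36.0% of the summed CPM of the 48 genes in siNC cells. Level and fold change were hardly related across the 48 genes (Pearson's r of log2 level and log2 fold change -0.095, Spearman's rho -0.039, a description over genes that share the same 6 libraries).

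**Figure D3:**
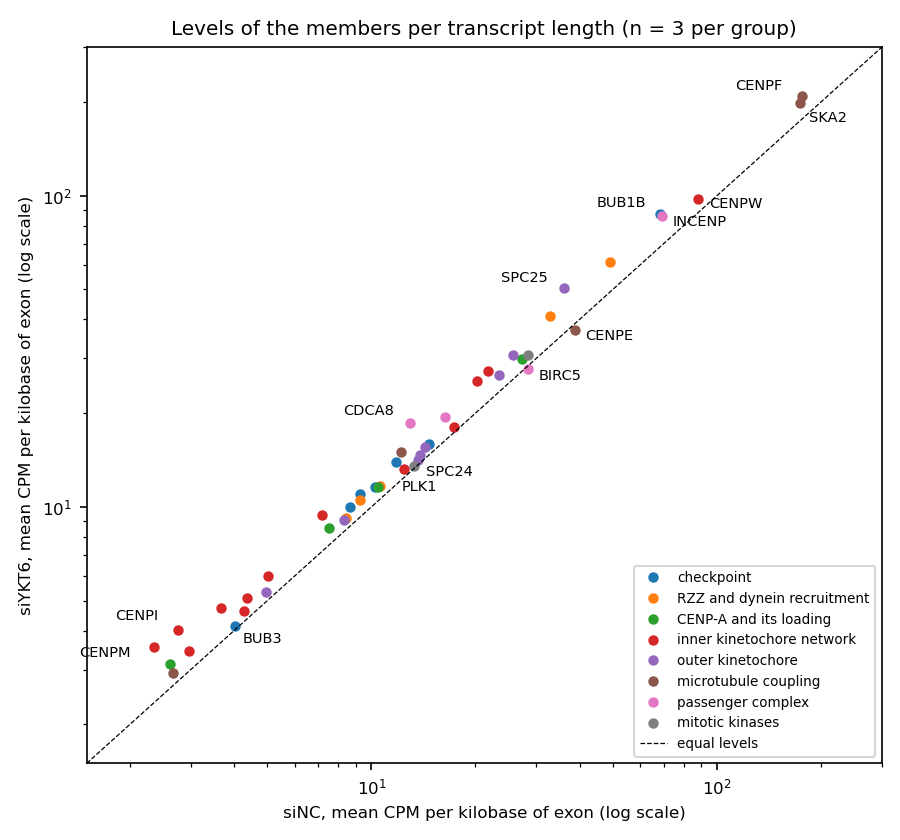
Mean CPM per kilobase of exon in siNC (x axis) and siYKT6 cells (y axis), both on log scales with n = 3 per group, 1 point per gene coloured by role, with the dashed line marking equal levels. All points but those of CENPE and BIRC5 lie above the line, from CENPM at 2.36 to CENPF at 176 CPM per kilobase in siNC cells.

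Promoter sequence was set beside these values because many genes of the late cell cycle carry a cell cycle genes homology region (CHR), a short element through which the MuvB core complex represses or activates them, often near CCAAT boxes bound by NF-Y. Windows of 250 bases before and 50 after the RefSeq start (GRCh38.p14) were at hand for 39 of the 48 genes, of which 5 had more than 1 window, and were searched on both strands. The CHR letters TTTGAA, or TTCAAA on the other strand, were in 20 of 39 genes (51.3%), against 18.2% of the 27305 genes with a window and 14.2% of the 11431 tested genes with one. With the bases before the start alone, the share was 30.8%, against 16.1% and 12.4%. Among called genes 18 of 31 held the letters (58.1%), and among the genes not called 2 of 8 did, which were PLK1 and SKA1. BIRC5, BUB3 and CENPH, also not called, had no window, so part of that group is missing from the count. The other 13 called genes, such as CENPI, CENPQ and CENPU, lacked the letters in this window. With the bases before the start alone, 11 of 31 called genes and 1 of 8 genes not called held them. Whether the letters go with a call was not tested. CCAAT or ATTGG was in 27 of 39 (69.2%, against 39.7% of all and 42.8% of tested genes), the E2F word GCGGGAA or TTCCCGC in 8 (20.5%, against 7.82% and 12.2%), and the CHR variant TTTAAA in 4 (10.3%, against 14.5% and 11.5%). No match has been shown to be a site.

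Shown are 7 windows with the CHR letters, from called genes with rises above the median called rise (17.9%) and from PLK1, which was not called. The 2 shown without them are from SPC24 and CENPE, which were not called. The windows were chosen with the values known, and no called gene without the letters, such as CENPI, is shown. Called genes with the letters and smaller rises, such as HJURP, are not shown either. Each runs from 120 bases before to 10 after the start, 5′ to 3′ along the gene. Capitals mark the CHR letters and the CCAAT boxes on either strand, and in CDCA8 the CHR letters overlap the last CCAAT box.
CDCA8, chr1:37692396-37692525, plus strand: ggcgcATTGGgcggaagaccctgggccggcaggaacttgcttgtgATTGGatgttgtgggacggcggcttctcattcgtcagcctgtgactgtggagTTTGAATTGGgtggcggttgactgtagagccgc
INCENP, chr11:62123891-62124020, plus strand: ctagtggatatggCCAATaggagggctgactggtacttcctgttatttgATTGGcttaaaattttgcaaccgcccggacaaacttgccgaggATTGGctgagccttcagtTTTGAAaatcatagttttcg
BUB1B, chr15:40160949-40161078, plus strand: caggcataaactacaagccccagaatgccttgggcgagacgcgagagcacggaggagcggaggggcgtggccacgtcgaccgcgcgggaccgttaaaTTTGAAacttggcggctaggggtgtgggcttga
SPC25, chr2:168890421-168890550, minus strand: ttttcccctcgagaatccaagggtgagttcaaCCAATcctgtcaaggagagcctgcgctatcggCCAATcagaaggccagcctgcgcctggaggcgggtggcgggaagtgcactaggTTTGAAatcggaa
ZWINT, chr10:56361250-56361379, minus strand: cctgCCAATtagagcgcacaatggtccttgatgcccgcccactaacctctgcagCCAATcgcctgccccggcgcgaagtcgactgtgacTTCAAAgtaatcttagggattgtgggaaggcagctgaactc
NDC80, chr18:2571437-2571566, plus strand: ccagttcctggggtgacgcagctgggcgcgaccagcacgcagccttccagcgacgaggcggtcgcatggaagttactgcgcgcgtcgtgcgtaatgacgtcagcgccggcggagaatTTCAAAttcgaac
PLK1, chr16:23678769-23678898, plus strand: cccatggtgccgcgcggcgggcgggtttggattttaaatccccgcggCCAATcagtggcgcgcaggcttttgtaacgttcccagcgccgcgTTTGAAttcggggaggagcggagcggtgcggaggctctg
SPC24, chr19:11155773-11155902, minus strand: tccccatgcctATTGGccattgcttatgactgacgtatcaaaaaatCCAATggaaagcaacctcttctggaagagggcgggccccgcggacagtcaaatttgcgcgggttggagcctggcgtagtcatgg
CENPE, chr4:103198334-103198463, minus strand: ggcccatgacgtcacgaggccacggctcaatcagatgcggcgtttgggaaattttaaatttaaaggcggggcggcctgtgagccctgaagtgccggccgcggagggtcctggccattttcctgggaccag
In the windows shown, the first CHR base lay at -23 from the start in CDCA8 and BUB1B, -10 in INCENP and -31 in ZWINT. It lay at -3 in SPC25 and NDC80, and at -29 in PLK1. In the other ZWINT window, which has another start, the letters lay at -17, and SPC25 had a further match at -247. BUB1B, NDC80 and CENPE have no CCAAT box in the window shown, and the variant TTTAAA is at -68 and -62 in CENPE and at -88 in PLK1.

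Among 7 checkpoint genes, 6 rose and BUB3 did not pass the test (median log2 fold change 0.205). BUB1B encodes BUBR1, which binds and restrains CDC20 and the anaphase-promoting complex. It was at 311, 294 and 310.2 CPM in siNC samples and 397, 389 and 388 CPM in siYKT6 samples, the largest rise of the group (log2 fold change 0.36, standard error 0.0323, edgeR adjusted p = 2e-08). Of its exon length 10.2% is shared, on the same strand, with the readthrough gene BUB1B-PAK6. CDC20, the activator of the anaphase-promoting complex that the checkpoint inhibits, was at 17.9, 20.5 and 18.5 CPM in siNC and 21.8, 22.2 and 23.2 CPM in siYKT6 samples (0.24, standard error 0.0564, edgeR adjusted p = 0.00218). Both genes separated the groups without overlap.

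MAD2L1 encodes MAD2, the protein that changes shape at unattached kinetochores to capture CDC20. Its levels were 49.5, 52.3 and 47.8 CPM in siNC samples and 54.4, 57.3 and 60.6 CPM in siYKT6 samples (0.20, standard error 0.0456, edgeR adjusted p = 0.00143). TTK, the kinase MPS1 that starts checkpoint signaling, was at 48.1, 47.8 and 44.4 CPM and then 53.4, 53.2 and 52.6 CPM (0.18, standard error 0.0413, edgeR adjusted p = 0.00148). In both genes the lowest siYKT6 sample lay above the highest siNC sample. BUB1, a kinase that marks centromeric histones and recruits BUBR1, was at 89.9, 85.7 and 89.9 CPM and then 98.1, 97.4 and 93.4 CPM (0.12, standard error 0.0367, edgeR adjusted p = 0.0139), and its call was lost without siNC replicate 2 or siYKT6 replicate 1 or 2 (edgeR adjusted p up to 0.0758). MAD1L1, the platform for MAD2, rose by 0.24. BUB3, the adaptor of BUB1 and BUBR1, stood at 32.9, 35.1 and 32.0 CPM against 32.4, 35.6 and 35.1 CPM, with the groups mixed (0.043, edgeR adjusted p = 0.563).

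All 5 genes of the RZZ complex and dynein recruitment rose (median 0.183). SPDL1, the adaptor Spindly that brings dynein to kinetochores, had the smallest p. It was at 159, 159 and 152 CPM in siNC and 192, 193 and 203 CPM in siYKT6 samples (0.32, standard error 0.0350, edgeR adjusted p = 3.07e-07), a gap far wider than the spread within either group. ZWINT, which tethers the RZZ complex to the outer kinetochore, rose by 0.31, and the RZZ subunits ZW10, KNTC1 (ROD) and ZWILCH rose by 0.18, 0.13 and 0.13. ZWILCH lost its call without siNC replicate 1 or 3 or siYKT6 replicate 3 (edgeR adjusted p up to 0.112).

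Of 4 genes of CENP-A and its loading, 3 rose by small amounts (median 0.166) and OIP5 did not pass the test. HJURP, the chaperone that delivers CENP-A to centromeres, was at 104, 105 and 103 CPM in siNC and 114, 114 and 114 CPM in siYKT6 samples (0.13, standard error 0.0333, edgeR adjusted p = 0.00387). The 3 siYKT6 values were nearly equal, with an SD of 0.283 CPM. CENPA itself was at 14.2, 14.8 and 15.8 CPM and then 16.4, 17.2 and 17.1 CPM (0.17, standard error 0.0584, edgeR adjusted p = 0.0265). Its call was lost without siNC replicate 1 or 2 or siYKT6 replicate 2 or 3 (edgeR adjusted p up to 0.104). MIS18A, a subunit of the licensing complex for CENP-A loading, rose by 0.16, a call lost in 5 of the 6 fits without a replicate and with DESeq2. The value for its partner OIP5 was 0.25 at 2.71 to 4.15 CPM (edgeR adjusted p = 0.153), and 38.0% of its exon length lies opposite the antisense gene OIP5-AS1.

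In the inner kinetochore network 11 of 13 genes were called higher (median 0.264), among them the 2 with the largest log2 fold changes of the 48, CENPM and CENPI. CENPO, of the CENP-O group that recruits PLK1 through CENPU, had the smallest p. It was at 41.3, 39.2 and 38.4 CPM in siNC samples and 51.7, 51.6 and 52.7 CPM in siYKT6 samples (0.39, standard error 0.0410, edgeR adjusted p = 1.7e-07). The groups stood apart, although 27.0% of its exon length lies opposite ADCY3 and the sources used here do not give the strand setting of the counting. Its partners CENPQ, CENPU and CENPP rose by 0.33, 0.32 and 0.22, and CENPP shares 38.0% of its exon length with IPPK on the opposite strand. The pair CENPL and CENPN, of which CENPN reads CENP-A nucleosomes, rose by 0.36 and 0.26. The DNA-binding pair CENPT and CENPW rose by 0.22 and 0.14, and CENPC, which links CENP-A nucleosomes to the MIS12 complex, by 0.12 with an adjusted p of 0.0497 in edgeR. CENPC lost its call with DESeq2, limma-voom and without any replicate but siYKT6 replicate 3, and CENPW lost its call without siNC replicate 3 or siYKT6 replicate 3 (edgeR adjusted p 0.0669 and 0.0738).

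The subunits of the CENP-H group did not move alike. CENPM (chromosome 22, 41938721 to 41947164, GRCh38), a small GTPase-like protein of this group, was at 3.85, 4.04 and 4.68 CPM in siNC and 5.71, 5.85 and 7.36 CPM in siYKT6 samples (0.58, standard error 0.111, edgeR adjusted p = 0.00034). CENPI (chromosome X, 101098218 to 101163681) was at 11.1, 12.8 and 11.8 CPM and then 18.0, 16.7 and 17.4 CPM (0.54, standard error 0.0633, edgeR adjusted p = 7.98e-07). CENPM rests on 172 to 425 counts a library. Their partner CENPH was at 28.6, 28.3 and 26.6 CPM against 29.6, 30.0 and 29.6 CPM (0.10, edgeR adjusted p = 0.109). CENPK was at 73.5, 75.8 and 74.3 CPM against 80.7, 80.8 and 72.0 CPM (0.063, edgeR adjusted p = 0.301), and without the low siYKT6 replicate 3 it was called higher (0.116, edgeR adjusted p = 0.0232).

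In the outer kinetochore 5 of 8 genes rose (median 0.125), and the NDC80 complex was uneven. SPC25, a subunit of the end of this complex that anchors it to chromatin, was at 66.9, 65.8 and 65.9 CPM in siNC samples and 87.0, 91.9 and 99.9 CPM in siYKT6 samples (0.49, standard error 0.0438, edgeR adjusted p = 1.85e-08). Its direct partner SPC24 was at 37.1, 40.5 and 38.4 CPM against 40.0, 38.5 and 42.3 CPM, with the groups mixed (0.057, standard error 0.0463, edgeR adjusted p = 0.403). NDC80, the microtubule-binding subunit, was at 92.7, 91.0 and 94.4 CPM and then 111, 109 and 113 CPM (0.26, standard error 0.0350, edgeR adjusted p = 6.04e-06), and its partner NUF2 rose by 0.18. In the MIS12 complex, the bridge between the inner network and NDC80, DSN1 and MIS12 rose by 0.13 and 0.12, while PMF1 and NSL1 had values of 0.077 and 0.098 without a call. DSN1 lost its call without siNC replicate 2 or 3 or siYKT6 replicate 2 or 3, and MIS12 lost it without any 1 replicate, with DESeq2, with limma-voom and with no filter on low counts. PMF1 shares 23.3% of its exon length with the readthrough gene PMF1-BGLAP on the same strand.

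Of 5 genes of microtubule coupling, 3 rose (median 0.186). CENPF (chromosome 1, 214603195 to 214664588, GRCh38) was at 2061, 2039.6 and 2059.9 CPM in siNC and 2505, 2548 and 2269.8 CPM in siYKT6 samples (0.25, standard error 0.0349, edgeR adjusted p = 9.08e-06). The siNC samples were nearly equal and siYKT6 replicate 3 was the lowest of its group, still above all siNC samples. SKA3 and SKA2, subunits of the complex that keeps kinetochores on shrinking microtubule ends, rose by 0.29 and 0.19. The third subunit, SKA1, was at 8.27, 8.05 and 7.35 CPM against 9.78, 9.94 and 6.27 CPM (0.15, edgeR adjusted p = 0.406), and without siYKT6 replicate 3 it was called higher (0.327, edgeR adjusted p = 0.0043). CENPE, the kinesin that carries chromosomes to the spindle equator, was at 365, 375 and 357 CPM against 357, 344 and 348 CPM (-0.065, standard error 0.0318, edgeR adjusted p = 0.133). The groups overlapped only where the highest siYKT6 sample (356.95 CPM) met the lowest siNC sample (356.91 CPM). CENPE had the lowest log2 fold change of the 48 genes.

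In the chromosomal passenger complex 3 of 4 genes rose (median 0.287). CDCA8 encodes Borealin, which helps to place the complex on centromeres. It was at 34.3, 29.5 and 31.8 CPM in siNC samples and 43.8, 48.7 and 45.0 CPM in siYKT6 samples (0.53, standard error 0.0524, edgeR adjusted p = 8.84e-08). The kinase AURKB was at 37.9, 35.8 and 35.9 CPM and then 43.5, 42.1 and 45.4 CPM (0.26, standard error 0.0436, edgeR adjusted p = 8.22e-05), and the scaffold INCENP rose by 0.31. These 3 genes separated the groups. BIRC5, which encodes Survivin and binds phosphorylated histone H3, did not: it was at 107, 112 and 106 CPM against 107, 102 and 108 CPM (-0.040, standard error 0.0373, edgeR adjusted p = 0.465).

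Of the 2 mitotic kinases outside that complex, AURKA rose and PLK1 did not pass the test. AURKA, which acts at spindle poles, was at 82.7, 84.5 and 81.6 CPM in siNC and 88.2, 91.3 and 90.0 CPM in siYKT6 samples (0.12, standard error 0.0354, edgeR adjusted p = 0.0155). Its call was lost without siNC replicate 3 or siYKT6 replicate 2 (edgeR adjusted p 0.0719 and 0.0697). PLK1, which acts at poles and kinetochores, was at 59.2, 64.9 and 65.8 CPM against 63.9, 66.4 and 62.9 CPM (0.023, standard error 0.0429, edgeR adjusted p = 0.742). The siYKT6 values lay within or just above the siNC range, and without siNC replicate 1 the log2 fold change was -0.02.

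Ratios within a sample put pairs of genes side by side, free of library scaling. The pairs were chosen after their values were seen, so the ratios are a description with no test. SPC25 over SPC24 was 1.71 ± 0.0899 (SD, n = 3) in siNC and 2.31 ± 0.117 in siYKT6 samples. CDCA8 over BIRC5 went from 0.294 ± 0.0294 to 0.435 ± 0.0386. In both pairs the groups stood apart. CENPF over CENPE was 5.62 ± 0.165 and 6.99 ± 0.440, and BUB1B over BUB3 was 9.17 ± 0.692 and 11.4 ± 0.746, again without overlap. In contrast, DSN1 over PMF1 (1.12 ± 0.122 and 1.16 ± 0.0582) overlapped between groups. AURKB over PLK1, which are not subunits of the same complex, was 0.579 ± 0.0528 and 0.679 ± 0.0445. Its groups overlapped narrowly, with the lowest siYKT6 value (0.634) just under the highest siNC value (0.640).

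**Figure D4:**
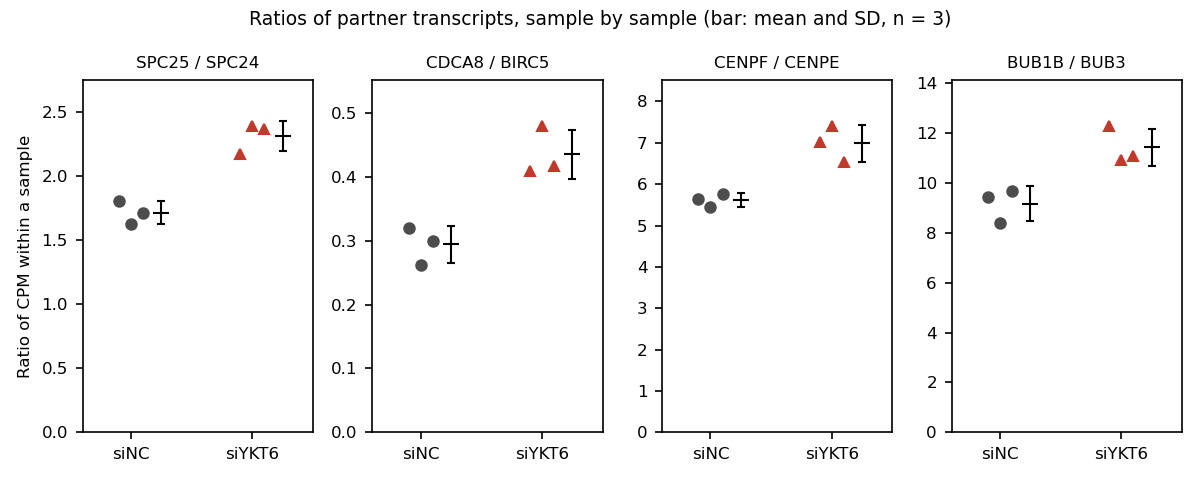
Ratio of the CPM of partner transcripts within each sample (y axes from 0), with circles for the 3 siNC samples, triangles for the 3 siYKT6 samples and bars for the mean and SD. The ratio is higher in every siYKT6 sample than in any siNC sample in all 4 pairs drawn. On average it went from 1.71 to 2.31 for SPC25 over SPC24 and from 0.294 to 0.435 for CDCA8 over BIRC5. The pairs were chosen after their values were seen. AURKB over PLK1 and DSN1 over PMF1, where the groups overlapped, are not drawn.

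Other genes of the same machinery were also examined. Of 18 further kinetochore and centromere genes, 9 rose, 2 fell and 7 were not called (median 0.109). The shares higher and lower were 50.0% and 11.1%, against 14.6% and 16.3% of all tested genes. The number lower was 1 without siNC replicate 1 or 3 or siYKT6 replicate 2 or 3. SGO2, a guardian of centromeric cohesion, rose by 0.32. NDE1, a dynein regulator that binds CENPF, rose by 0.35, and STRA13, the file's name for the histone-fold protein CENP-X, rose by 0.44. The genes that fell were CLASP1 and CLASP2, which promote microtubule growth at kinetochores, with log2 fold changes of -0.16 and -0.13.

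The anaphase-promoting complex is the ubiquitin ligase that the checkpoint restrains. Of 19 genes of the complex, its partners and targets, 4 were higher and 4 lower, with a median of -0.019. These shares were 21.1% each, against 14.6% higher and 16.3% lower over all tested genes. Within the abundance range of the 48 genes they were 21.2% and 23.5%, a wide range that is not matched to this list. The list mixes subunits with other genes. All 4 genes called lower are subunits of the ligase, while of the 4 called higher only ANAPC11 is. CDC23, a core subunit of the ligase, was at 66.3, 68.8 and 62.8 CPM in siNC and 44.0, 43.1 and 40.8 CPM in siYKT6 samples (-0.63, standard error 0.0435, edgeR adjusted p = 3.61e-10). The core subunits CDC16, ANAPC7 and CDC27 also fell. UBE2C, the ubiquitin-conjugating enzyme that works with the ligase, and ESPL1, the separase that cleaves cohesin, rose by 0.37 each, and ANAPC11, the catalytic RING subunit, and FZR1, the activator used after anaphase, were higher too. The difference between this list and the 48 genes was not tested.

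Among general proliferation genes, 10 of 13 rose, 1 fell and the median was 0.169. The shares higher and lower were 76.9% and 7.69%, against 14.6% and 16.3% of all tested genes. MKI67, the gene of the Ki-67 antigen, was at 1959, 1798 and 1925 CPM in siNC and 2436, 2468 and 2284 CPM in siYKT6 samples (0.34, standard error 0.0347, edgeR adjusted p = 1.3e-07). MCM2, a subunit of the replicative helicase, rose by 0.26, and CCNB2, a mitotic cyclin, by 0.26. MCM6, of the same helicase, fell by 0.096, a call lost under several settings. The part of this shift in the rise of the kinetochore genes was not tested.

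**Figure D5:**
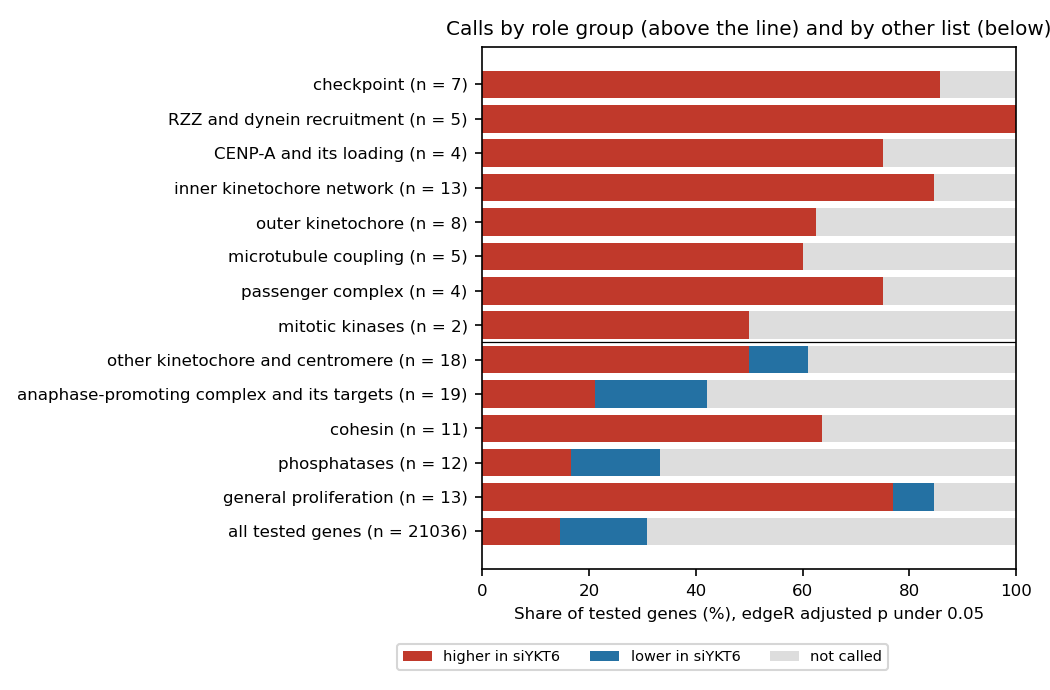
Share of tested genes (x axis, %) that edgeR called higher, lower or not at an adjusted p under 0.05, for the 8 role groups of the 48 genes (above the line) and for the other lists and all 21036 tested genes (below it). No role group has a lower call, the RZZ group is higher throughout (5 of 5), and all tested genes stand at 14.6% higher and 16.3% lower.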

How the data were processed

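RNA-seq was made from 6 samples of 5637 cells with a stranded mRNA kit. The authors filtered reads with fastp 0.23.0 and counted reads per gene with featureCounts of Subread 1.5.1 on GRCh38, and the deposited values are raw counts. The sources used here give neither the aligner nor the strand setting. Even numbers made up 68.8% to 70.0% of counts from 1 to 20, which can arise where each read of a pair adds a count, so a fit with halved counts was run.

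After filterByExpr, 21036 genes were kept and 15851 left out, and siYKT6 was compared with siNC using TMM scaling and the two-sided quasi-likelihood test of edgeR 4.0.16 (R 4.3.3), with Benjamini-Hochberg adjustment over all tested genes at 0.05. The script was tested on simulated data. Standard errors of log2 fold changes were derived from the quasi-likelihood test. Each is the absolute unshrunken coefficient, in log2, divided by the square root of the F statistic. Mean chi-square per gene was 3.63 to 5.99 between libraries of a group and 32.8 to 40.3 between groups, and each library was taken as 1 sample, as the labels have it.

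The genes and lists were chosen with earlier results of these data known, and p values adjusted over a list alone are not given. Of the marker lists, 1 gene is not reported here. Named in full were, per role group, the called gene with the smallest p, genes called lower, and BUB1, BUB1B, MAD2L1, TTK, CENPA, NDC80, AURKA, AURKB, PLK1 and CDC20, and per further list up to 3 called genes with the smallest p. BUB3, SPC24, SKA1, CENPE, BIRC5, CENPM, CENPI, CENPH and CENPK were given in full, and the further APC subunits, CLASP1, CLASP2, MCM6 and PPP2R5C were named, after their values were seen. The genes whose promoter windows are shown were also chosen with the values known. Alternatives were other scalings, filters, DESeq2 1.42.0, limma-voom (limma 3.58.1), a replicate block and leaving out each replicate.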

Additional observations from a re-analysis of the deposited data

How the results depend on the processing

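With all 6 samples, 8 alternatives left 34 to 37 of the 48 genes higher and 0 lower (DESeq2 34, limma-voom 35, no filter on low counts 36), and leaving out each replicate gave 30 to 33 higher and 0 lower. The median log2 fold change of the 48 genes ran from 0.175 to 0.204, and that of all tested genes moved by no more than 0.0203 from 0. The genes that lost their call under some setting were BUB1, ZWILCH, CENPA, MIS18A, CENPC, CENPW, MIS12, DSN1 and AURKA, all with a log2 fold change of at most 0.175, and SKA1 and CENPK gained one without siYKT6 replicate 3. PLK1, not called, ran from -0.02 (without siNC replicate 1) to 0.053 when a replicate was left out. The cause was not tested.

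Samples with the same replicate number did not deviate together (r -0.027 to 0.0164 for the 3 pairs), so the numbers are not taken to pair the samples. With the replicate block, 34 of the 48 genes were higher and 0 lower, and MIS18A (0.156, edgeR adjusted p 0.052), CENPC (0.116, 0.0573) and MIS12 (0.123, 0.0588) lost their call. Over all genes the block gave 2958 higher and 3312 lower, and leaving out replicates gave 2503 to 2814 higher and 2916 to 3244 lower.

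Among the phosphatases the number lower was 1 with upper quartile scaling, with no filter and with the replicate block, and 1 in each fit without a replicate, and the number higher was 1 to 2 without a replicate. In the proliferation list the number lower was 0 under the same 3 settings and 0 to 1 without a replicate. In the further kinetochore list the number lower was 1 to 2 without a replicate. The CHR share of promoters was 30.8% with the bases before the start alone. Genes of low level, such as CENPM (3.85 to 7.36 CPM) and OIP5 (2.71 to 4.15 CPM), rest on 121 to 425 counts a library, which limits their precision.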

Other observations

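Cohesin genes, which hold sister chromatids together until anaphase, gave mostly higher values: 7 of 11 tested genes rose, 0 fell and the median log2 fold change was 0.127. That is 63.6% higher, against 14.6% higher and 16.3% lower over all tested genes. CDCA5, which encodes Sororin and protects cohesin on replicated DNA, was at 42.8, 42.4 and 44.8 CPM in siNC and 65.5, 64.4 and 65.4 CPM in siYKT6 samples (0.59, standard error 0.0390, edgeR adjusted p = 1.97e-10). PDS5B, a regulator of cohesin, rose by 0.21 and RAD21, the subunit cleaved at anaphase, by 0.14. In edgeR, 7 cohesin genes were higher and 0 lower at an unadjusted p under 0.05, against 3985 and 4322 of the 21036 tested genes.

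Phosphatases that counter mitotic kinases gave 2 higher, 2 lower and 8 without a call among 12 tested genes (median 0.058), shares near those over all tested genes (14.6% higher and 16.3% lower). The number lower was 1 in each fit without a replicate, with upper quartile scaling, with no filter on low counts and with the replicate block, and PPP2R5C (-0.094, edgeR adjusted p = 0.0438) was the other gene called lower. PPP2R5B, a B56 regulatory subunit of PP2A, was at 6.95, 7.03 and 7.07 CPM in siNC and 4.47, 4.47 and 3.77 CPM in siYKT6 samples (-0.72, standard error 0.0923, edgeR adjusted p = 2.65e-06). PPP1CB and PPP1CA, catalytic subunits of PP1, rose by 0.11 and 0.14.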
